A study of Cricetulus griseus with 9 samples.

Results

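Fibrillar collagens are the rope-like proteins of connective tissue, each built from chains that wind into a long triple helix and pack side by side into fibrils. Types I, II and III make up the bulk of fibrils, and types V and XI, present in smaller amounts, help to start fibrils and set their width. Fibrillar collagen mRNAs are among the best known targets of the miR-29 family, small RNAs that pair through a shared seed with sites in untranslated regions and lower the level or translation of the mRNA. The genes described here are 8 members of the fibrillar collagen family, Col1a1, Col1a2, Col2a1, Col3a1, Col5a1, Col5a2, Col5a3 and Col11a1, taken by a list of their mouse Ensembl identifiers. The deposited table of 15557 genes holds 7 of them, and 3 of these (Col1a1, Col3a1 and Col5a2) averaged at least 1 FPKM (reads scaled by model length and library depth) and so entered the tests. The table has no row for Col5a1, the alpha 1 chain of type V collagen, and the deposited annotation has no model for it, so it was not analysed here.

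The libraries came from CHO-K1, an established Chinese hamster ovary line, 48 h after transfection, with 3 libraries for pre-miR-29b-1, 3 for pre-miR-29a and 3 for anti-miR-29a. A pre-miR is a synthetic precursor that raises the level of its microRNA, and the anti-miR is an inhibitor that the submitters describe as acting on miR-29a and miR-29b-1 alike. All groups received the same lipid reagent and charcoal-stripped serum, and cells with a control RNA or without transfection were not analysed here, nor were microRNA levels. A difference between a pre-miR and anti-miR-29a therefore spans an increase and a block, and the part of each is not separable. Growth in triplicate is stated, but not whether replicates were transfected separately, so each p-value reflects library-to-library spread that may be technical. If each molecule was transfected in an experiment of its own, which the study's text leaves unclear, experiment and molecule cannot be told apart. The read depth implied by the values was 18570000 to 20790000 reads per library with pre-miR-29b-1, 16590000 to 19000000 with pre-miR-29a and 15190000 to 17810000 with anti-miR-29a.

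The gene models carried the exon structure of fibrillar collagens, a description that does not use expression. It shows that the models are collagen-like, but it cannot tell 1 collagen gene from another and so does not check the single names. Exons for the triple helix are built from units of 9 bases, 1 Gly-X-Y triplet each, and a length of 54 bases is the commonest. In the 7 models, 46.6% of 384 coding exons were exactly 54 bases long, against 0.557% of 150319 exons in the other 15550 genes of the table. Lengths of 45, 54 or 99 bases, or 2 or 3 times 54 bases, made up 79.2% of the exons in the fibrillar collagen models and 3.16% elsewhere. Each of the 7 models had at least 10 exons of 54 bases, from 21 in Col1a1 to 31 in Col5a3 and Col11a1, as did 8 other genes of the table.

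**Figure D1:**
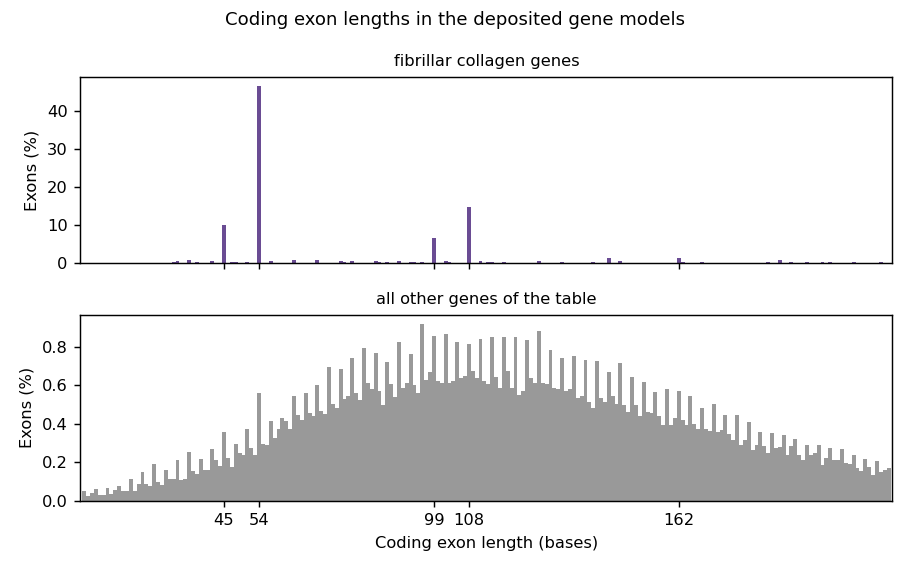
Length of coding exons (bases, horizontal) and share of exons (percent, vertical) in the 7 fibrillar collagen models (upper panel) and in all other genes of the table (lower panel), with separate vertical scales. The collagen models peak at 45, 54 and 99 bases and at 2 times 54 bases, with 46.6% of exons at 54 bases, where the other genes hold 0.557%.

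On the CriGri_1.0 assembly, Col3a1 (ENSMUSG00000026043) lies on scaffold JH004419 from 4281 to 30352 on the minus strand and has 50 coding exons and 1439 codons. Col5a2 (ENSMUSG00000026042) lies on JH003619 from 12168 to 74660, also on the minus strand, with 51 exons and 1468 codons, and has 2 models with the same exon bounds and length. No other gene shares exon bases with either, and neither scaffold carries another gene model. Col1a1 (ENSMUSG00000001506) lies on JH000436 from 1186256 to 1201370, minus strand, with 51 exons. An opposite-strand gene, ENSMUSG00000091342, covers 111 bases of 3 Col1a1 exons and is listed at 0 in every library. Col11a1 (ENSMUSG00000027966), on JH001158 from 293471 to 468736 on the plus strand, is the longest of the models at 67 exons and 1803 codons. Col5a3 (ENSMUSG00000004098) lies on JH000173 from 1403767 to 1443412, plus strand, with 62 exons. Col1a2 (ENSMUSG00000029661), on JH000059 from 3321857 to 3355765, has 50 exons, and Col2a1 (ENSMUSG00000022483), on JH002068 from 171554 to 199228, has 53, both on the plus strand. The missing Col5a1 is ENSMUSG00000026837. The untranslated regions, where miR-29 pairs, lie outside these models.

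Col3a1 and Col5a2 were the main transcripts among the 7 listed genes with a row. The level of Col5a1 is not known, and fibrillar collagens outside the list were not ranked. FPKM is per length of model, so levels of different genes can be set side by side. Averaged over the 9 libraries, the levels ran in the order Col5a2 (194.7 FPKM), Col3a1 (123.0 FPKM), Col1a1 (1.62 FPKM), Col11a1 (0.719 FPKM), Col5a3 (0.194 FPKM), Col2a1 (0.0374 FPKM) and Col1a2 (0.0302 FPKM). Col5a2 ranked 1098 and Col3a1 ranked 1812 by mean level among the 9504 tested genes, and Col1a1 ranked 9278. Col2a1 and Col1a2, the lowest of the list, had overlapping values in both pre-miR groups, so their order there does not exceed their spread. Type I collagen, the main fibril former of most connective tissue, was thus listed near or under the limit of the tests, and its chains stood far apart from each other in every group.

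**Figure D2:**
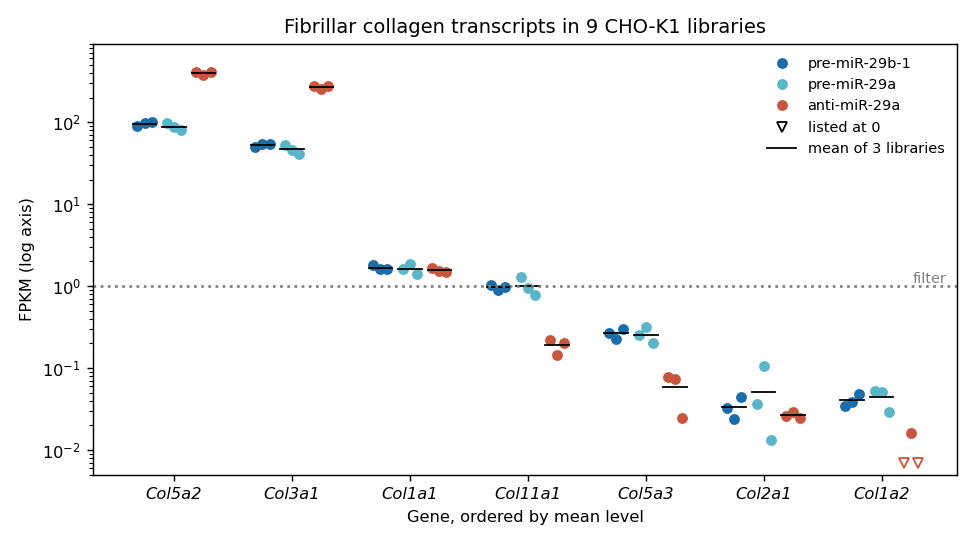
Level of each gene in FPKM (logarithmic vertical axis) in the 9 libraries, with 1 point per library, bars for group means and open triangles for values listed at 0. Col5a2 and Col3a1 stand lower with both pre-miRs than with anti-miR-29a, Col1a1 overlaps between the groups, and Col11a1 and Col5a3 stand higher with both pre-miRs.

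Col3a1, the only chain of type III collagen, stood further below its anti-miR-29a level with either pre-miR than almost all tested genes. It stood at 49.96, 54.5 and 54.6 FPKM with pre-miR-29b-1 and at 52.4, 46.4 and 41.2 FPKM with pre-miR-29a, against 279.8, 252.5 and 275.3 FPKM with anti-miR-29a. Every anti-miR-29a library was more than 4 times as high as any pre-miR library. By the looser measure of no overlap, whatever the gap, 29.2% of tested genes had all pre-miR libraries under all anti-miR-29a libraries. The group means were 53.0 ± 2.65 FPKM in pre-miR-29b-1 cells, 46.7 ± 5.58 FPKM in pre-miR-29a cells and 269.2 ± 14.6 FPKM in anti-miR-29a cells (SD, n = 3 each). The mean was 19.7% of the anti-miR-29a mean in pre-miR-29b-1 cells and 17.3% in pre-miR-29a cells. Without control cells, a fall with the pre-miRs and a rise with anti-miR-29a cannot be told apart. The lowest value rested on 2953 implied reads. In RNA from whole cultures, a lower level per cell and fewer cells that make the transcript cannot be told apart.

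Col5a2, the alpha 2 chain of type V collagen, differed by a little less in the same direction. It stood at 90.2, 97.5 and 101.1 FPKM with pre-miR-29b-1 and at 96.9, 86.5 and 79.4 FPKM with pre-miR-29a, against 414.4, 378.8 and 407.4 FPKM with anti-miR-29a. The anti-miR-29a libraries again lay above all pre-miR libraries, with no overlap, as in 29.2% of tested genes. The means were 96.3 ± 5.54 FPKM in pre-miR-29b-1 cells, 87.6 ± 8.80 FPKM in pre-miR-29a cells and 400.2 ± 18.9 FPKM in anti-miR-29a cells (SD, n = 3 each). The mean was 24.1% of the anti-miR-29a mean in pre-miR-29b-1 cells and 21.9% in pre-miR-29a cells. Each value rested on at least 5803 implied reads.

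In pre-miR-29b-1 cells set against anti-miR-29a cells, 2 of the 3 tested genes were lower and 0 higher at an adjusted p under 0.05 (limma, Benjamini-Hochberg over 9504 genes). Over all tested genes, 29.4% were called lower and 25.8% higher, so a call by itself says little about a gene here, and the size of the change says more. The log2 fold change on the log2(FPKM + 1) scale was -2.32 (SE 0.083, adjusted p 3.51e-08, limma) for Col3a1 and -2.04 (SE 0.076, adjusted p 4.31e-08, limma) for Col5a2, against a median of -0.0057 over all tested genes. Both were called and at least 4-fold lower on this scale, and 0.253% of the tested genes met both conditions. With a pseudocount of 1, 16 of the 9504 tested genes had a more negative log2 fold change than Col3a1, and 28 a more negative one than Col5a2. These ranks depend on the pseudocount, with 29 and 41 genes below Col3a1 and Col5a2 at 0.1, and 7 and 13 at 5.

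In pre-miR-29a cells set against anti-miR-29a cells, 2 of the 3 tested genes were again lower and 0 higher, beside 30.9% called lower and 27.5% called higher over all tested genes (limma). The log2 fold change was -2.51 (SE 0.083, adjusted p 2.16e-08, limma) for Col3a1 and -2.18 (SE 0.076, adjusted p 2.75e-08, limma) for Col5a2, with a median of -0.0157 over all tested genes. Both were called and at least 4-fold lower on this scale, and 0.263% of the tested genes met both conditions. Col3a1 had 11 genes with a more negative log2 fold change and Col5a2 had 20, against 24 and 38 with a pseudocount of 0.1 and 6 and 11 with one of 5. Both comparisons share their anti-miR-29a libraries, so they are not separate measurements of the difference. With the 6 pre-miR libraries pooled in 1 contrast, the log2 fold change was -2.41 (SE 0.072, adjusted p 6.60e-09, limma) for Col3a1 and -2.11 (SE 0.066, adjusted p 8.70e-09, limma) for Col5a2. There, 32.3% of tested genes were called lower and 29.3% higher, and 0.263% were both called and at least 4-fold lower. Neither gene lost its call, and the log2 fold changes against anti-miR-29a stayed between -2.66 and -1.97 for both genes in all alternatives run.

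**Figure D3:**
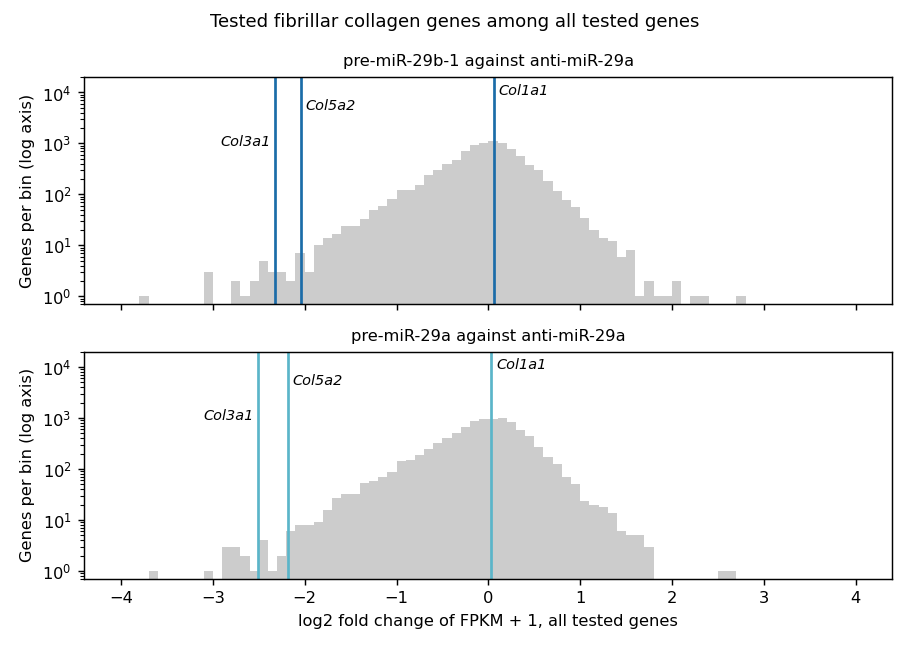
Number of tested genes (logarithmic vertical axis) by log2 fold change of FPKM + 1 in bins of 0.1, for pre-miR-29b-1 (upper) and pre-miR-29a (lower) against anti-miR-29a, with vertical lines at the 3 tested fibrillar collagen genes. Col3a1 (-2.32 and -2.51) and Col5a2 (-2.04 and -2.18) lie in the lower tail, and Col1a1 (0.06 and 0.03) lies in the middle of all genes.

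Col1a1, the alpha 1 chain of type I collagen and a well known miR-29 target in other cells, showed no detectable difference at its low level. It stood at 1.80, 1.62 and 1.60 FPKM with pre-miR-29b-1 and at 1.62, 1.85 and 1.39 FPKM with pre-miR-29a, against 1.69, 1.51 and 1.47 FPKM with anti-miR-29a. The ranges of the groups overlap. The means were 1.67 ± 0.11 FPKM in pre-miR-29b-1 cells, 1.62 ± 0.23 FPKM in pre-miR-29a cells and 1.56 ± 0.12 FPKM in anti-miR-29a cells (SD, n = 3 each), on 100 to 163 implied reads per library. The log2 fold change was 0.06 (95% interval -0.19 to 0.32, adjusted p 0.652, limma) in pre-miR-29b-1 cells and 0.03 (95% interval -0.22 to 0.28, adjusted p 0.817, limma) in pre-miR-29a cells, each against anti-miR-29a. This scale understates changes of low genes. Even a complete loss of Col1a1 would read on it as less than the differences of Col3a1 and Col5a2. The intervals therefore cannot be set against those differences. Without a pseudocount, the Col1a1 mean was 107.5% of the anti-miR-29a mean in pre-miR-29b-1 cells and 104.2% in pre-miR-29a cells. For Col3a1 these shares were 19.7% and 17.3%, and for Col5a2 24.1% and 21.9%. With a pseudocount of 0.1, which understates less, the log2 fold changes of Col1a1 were 0.10 in pre-miR-29b-1 cells and 0.05 in pre-miR-29a cells. The sign of the Col1a1 values turned with quantile normalization, so no direction is given for it.

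Col11a1, the alpha 1 chain of type XI collagen and best known from cartilage, stood higher with the pre-miRs. It stood at 1.03, 0.901 and 0.964 FPKM with pre-miR-29b-1 and at 1.295, 0.941 and 0.770 FPKM with pre-miR-29a, against 0.223, 0.145 and 0.204 FPKM with anti-miR-29a. Each of the 6 pre-miR libraries lay above each anti-miR-29a library, as in 10.7% of the 3872 genes with a mean under 1 FPKM and any value above 0. The means were 0.964 ± 0.063 FPKM in pre-miR-29b-1 cells, 1.00 ± 0.27 FPKM in pre-miR-29a cells and 0.191 ± 0.041 FPKM in anti-miR-29a cells (SD, n = 3 each), so that it was 5.05-fold higher in pre-miR-29b-1 cells and 5.25-fold higher in pre-miR-29a cells than in anti-miR-29a cells. The values stand for 69 to 130 implied reads per library with a pre-miR and 12 to 21 with anti-miR-29a.

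Col5a3, the alpha 3 chain of type V collagen, showed the same order at a lower level. It stood at 0.268, 0.227 and 0.302 FPKM with pre-miR-29b-1 and at 0.251, 0.316 and 0.201 FPKM with pre-miR-29a, against 0.0778, 0.0736 and 0.0249 FPKM with anti-miR-29a. The pre-miR libraries all lay above the anti-miR-29a libraries, as in 10.7% of the 3872 genes under 1 FPKM. The means were 0.266 ± 0.038 FPKM in pre-miR-29b-1 cells, 0.256 ± 0.058 FPKM in pre-miR-29a cells and 0.0588 ± 0.029 FPKM in anti-miR-29a cells (SD, n = 3 each), and 15 to 27 implied reads per library with a pre-miR stood against 2 to 6 with anti-miR-29a.

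Both genes lay under the filter and were fitted only when the filter was lifted and all 13376 genes above 0 were tested. In that fit, 2 of the 7 genes were higher in pre-miR-29b-1 cells than in anti-miR-29a cells (Col11a1 and Col5a3) and 2 were lower. Over all genes, 20.3% were called higher and 20.3% lower. Of the 3872 genes with a mean under 1 FPKM, where Col11a1 and Col5a3 lie, 10.9% were called higher and 1.39% lower. The log2 fold change of Col11a1 was 0.72 (SE 0.087, adjusted p 3.35e-04, limma) and that of Col5a3 0.26 (SE 0.041, adjusted p 0.00148, limma). In pre-miR-29a cells set against anti-miR-29a cells, the same counts stood beside 21.3% of all genes called higher and 21.4% called lower. Of those under 1 FPKM, 10.5% were called higher and 1.94% lower. The log2 fold changes were 0.74 (SE 0.087, adjusted p 2.49e-04, limma) for Col11a1 and 0.25 (SE 0.041, adjusted p 0.00167, limma) for Col5a3. A pseudocount of 1 lies above these levels and shrinks their changes. With no filter and a pseudocount of 0.1, a setting added after the levels were seen, the values for Col11a1 were 1.88 in pre-miR-29b-1 cells and 1.91 in pre-miR-29a cells, and those for Col5a3 were 1.22 and 1.17. The median log2 fold change of the 7 genes without a filter was 0.05 in pre-miR-29b-1 cells and 0.03 in pre-miR-29a cells, against 0.02 and 0.01 over all genes.

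Genes at such low levels were more often higher than lower with the pre-miRs. By implied reads, the anti-miR-29a libraries were shallower on average, but not each of them. Pre-miR-29a replicate 3, at 16590000 implied reads, was shallower than anti-miR-29a replicates 1 (17220000) and 3 (17810000). A part of depth in the excess was not tested. Of 3872 genes with a mean under 1 FPKM and any value above 0, every pre-miR value exceeded every anti-miR-29a value in 10.7%, and the reverse held in 1.68%. Counted per implied read of a library, Col11a1 was 5.06-fold higher with the pre-miRs (606 reads) than with anti-miR-29a (53 reads), with an exact 95% interval of 3.82 to 6.84. The ratio for Col5a3 was 4.56 (134 reads against 13, exact 95% interval 2.58 to 8.79). These intervals cover counting error only. The part of whatever sets the general excess of low genes in these changes was not tested.

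The last 2 genes sat at the limit of detection. Col1a2, the alpha 2 chain that joins Col1a1 in type I collagen, stood at 0.0350, 0.0391 and 0.0488 FPKM with pre-miR-29b-1 and at 0.0522, 0.0511 and 0.0293 FPKM with pre-miR-29a. With anti-miR-29a it was listed at 0 in 2 libraries and at 0.0161 FPKM in the other. These values stand for 2 to 4 implied reads per pre-miR library and a single read over all anti-miR-29a libraries. The ratio per implied read, pre-miRs over anti-miR-29a, was 8.86 with an exact 95% interval of 1.42 to 367. The interval covers counting error only and is too wide to say how much the level differed.

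Col2a1, the chain of type II collagen of cartilage, stood at 0.0322, 0.0240 and 0.0449 FPKM with pre-miR-29b-1 and at 0.0360, 0.106 and 0.0135 FPKM with pre-miR-29a, against 0.0260, 0.0295 and 0.0250 FPKM with anti-miR-29a. The groups overlap, and the ratio of 22 reads with the pre-miRs to 6 with anti-miR-29a was 1.62 after scaling by implied depth (exact 95% interval 0.638 to 4.89). This interval covers counting error only, and 9 of the 22 reads came from pre-miR-29a replicate 2. A difference in Col2a1 was not detectable at this depth. Without a filter, the 6 pre-miR libraries set against anti-miR-29a gave Col2a1 an adjusted p of 0.576 and Col1a2 one of 0.0330 (limma). There, 23.5% of all genes and 13.2% of the 3872 genes under 1 FPKM were called higher. The Col1a2 call ended when any library other than pre-miR-29a replicate 3 was left out (adjusted p up to 0.116, limma).

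**Figure D4:**
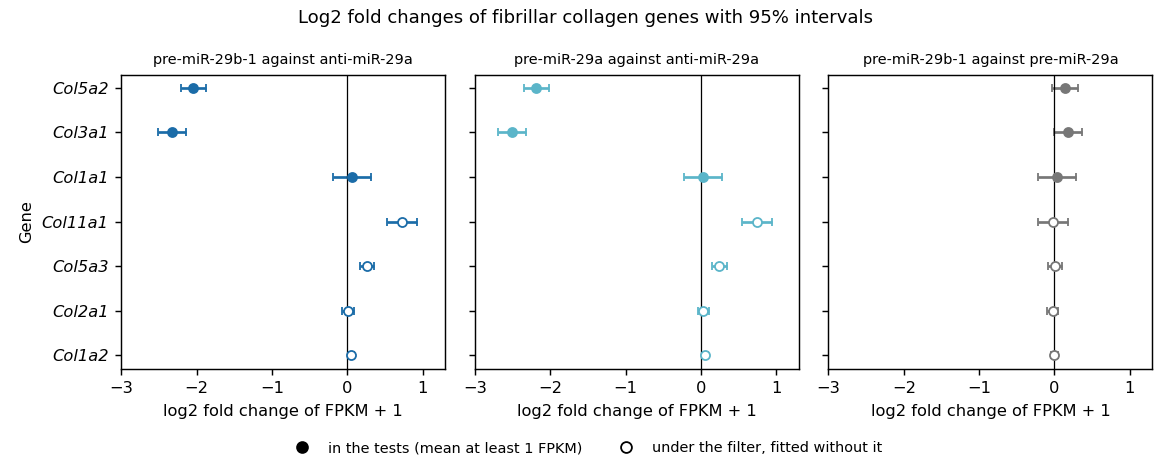
Log2 fold change of FPKM + 1 (horizontal) with its 95% interval for each gene in 3 comparisons, with filled points for genes in the tests and open points for genes under 1 FPKM that were fitted without the filter. Col5a2 and Col3a1 lie between -2.51 and -2.04 in both comparisons with anti-miR-29a, Col11a1 and Col5a3 lie above 0, and the points that compare the pre-miRs (pre-miR-29b-1 minus pre-miR-29a) lie between -0.02 and 0.19.

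In pre-miR-29b-1 cells set against pre-miR-29a cells, 0 of the 3 tested genes passed the threshold (limma), as against 0.0105% of all tested genes (1 gene). At an unadjusted p under 0.05, 1 of the 3 (Col3a1, p 0.0499, limma) and 1570 of all 9504 genes passed. The log2 difference was 0.19 (95% interval 0.00 to 0.37, adjusted p 0.302, limma) for Col3a1 and 0.14 (95% interval -0.03 to 0.31, adjusted p 0.372, limma) for Col5a2. A difference of up to 0.37 on this scale is therefore within the interval. Pre-miR-29a replicate 1 bore on this result: without it, Col3a1 passed with a log2 difference of 0.27 (adjusted p 0.0416, limma), beside 6.63% of genes called higher, and Col5a2 stood at 0.21 (adjusted p 0.0602, limma). With library weights both passed, at 0.34 for Col3a1 and 0.26 for Col5a2 (adjusted p 0.00317 and 0.00463, limma), beside 18.6% of all genes called higher. For Col1a1 the difference was 0.03 (95% interval -0.22 to 0.28, adjusted p 0.904, limma). Without the filter, Col11a1 stood at -0.02 (95% interval -0.22 to 0.18) and Col5a3 at 0.01 (95% interval -0.08 to 0.11).

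The sum of the 7 genes stood at 143.4, 154.9 and 158.6 FPKM with pre-miR-29b-1 and at 152.6, 136.2 and 123.1 FPKM with pre-miR-29a. With anti-miR-29a it stood at 696.2, 633.1 and 684.5 FPKM. Of every 10000 FPKM in a library, 1.27 ± 0.07 belonged to these genes in pre-miR-29b-1 cells, 1.12 ± 0.16 in pre-miR-29a cells and 5.44 ± 0.34 in anti-miR-29a cells (SD, n = 3 each). Col3a1 and Col5a2 together made up 97.6% to 98.2% of the sum in pre-miR libraries and 99.7% to 99.8% in anti-miR-29a libraries, so the sum follows them.

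The ratios between the transcripts also stood apart, and they were not tested. Col5a2 stood at 1.81, 1.79 and 1.85 times the FPKM of Col3a1 with pre-miR-29b-1 and at 1.85, 1.86 and 1.93 times with pre-miR-29a, against 1.48 to 1.5 times with anti-miR-29a. Every pre-miR library had a higher ratio than every anti-miR-29a library, as the larger log2 difference of Col3a1 implies. The FPKM of Col3a1 was 31.9 ± 3.58 times that of Col1a1 in pre-miR-29b-1 cells, 29.0 ± 3.66 times in pre-miR-29a cells and 173.4 ± 12.1 times in anti-miR-29a cells (SD, n = 3 each). Col11a1, whose chain can take part in type V fibrils, reached 1.00% ± 0.12 of the Col5a2 level in pre-miR-29b-1 cells and 1.13% ± 0.19 in pre-miR-29a cells, against 0.0474% ± 0.0081 in anti-miR-29a cells (SD, n = 3 each). These ratios set mRNA levels side by side and say nothing of the proteins.

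**Figure D5:**
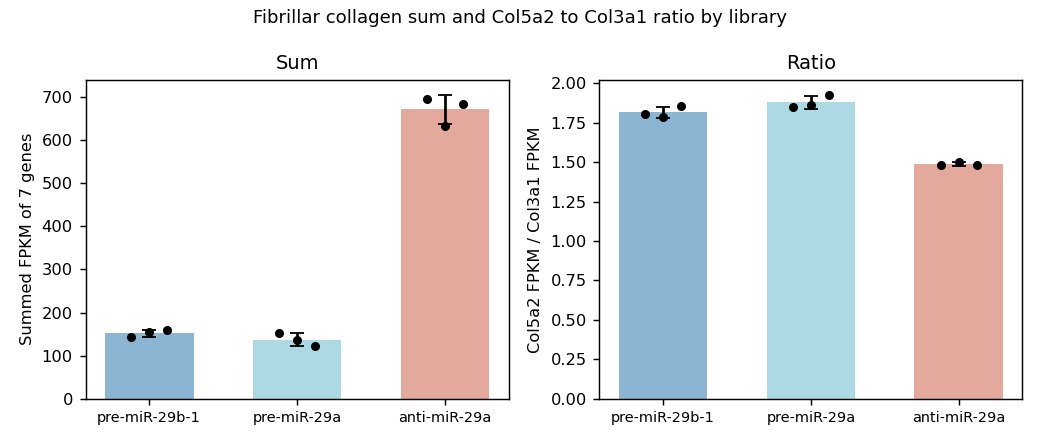
Left, summed FPKM of the 7 fibrillar collagen genes, and right, FPKM of Col5a2 divided by that of Col3a1, for each library (points) with the group mean (bar) and SD (error bar, n = 3). The sum lies between 123.1 and 158.6 FPKM with the pre-miRs and between 633.1 and 696.2 FPKM with anti-miR-29a, while the ratio is higher with the pre-miRs.

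Among the 9503 other tested genes, the one whose log2 values followed Col5a2 most closely over the 9 libraries was Col3a1, with a Pearson r of 0.9998. The next was ENSMUSG00000026270 (r 0.999), at 23.5 ± 1.21 FPKM in the 6 pre-miR libraries and 44.3 ± 0.641 FPKM in the 3 anti-miR-29a libraries (SD). The rank of Col1a1 in this order was 5477. With libraries in 2 separate clusters, such values mainly record the gap between the pre-miR and anti-miR-29a groups, and they are given as a description.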

How the data were processed

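The mRNA of 9 CHO-K1 libraries was sequenced in single reads with a stranded kit. The authors deposited FPKM per gene and library. Per the submitters' processing notes, FastQC, TopHat2 2.0.13 and Cuffnorm were used; the sources used here do not give Cuffnorm's scaling, strand setting or filters. Per the file headers, models are mouse Ensembl release 66 proteins aligned to CriGri_1.0. Exon bounds came from that annotation. Its models hold no untranslated regions (99.91% of lengths divide by 3), so lengths are coding lengths.

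Symbols of the 8 genes came with their list of identifiers, as the files pair none, and the 32251 genes of the RefSeq table (CriGri-PICRH-1.0) carry no Ensembl identifiers. A list of collagen processing genes and cell type markers could therefore not be matched and have no result. Genes and lists were chosen with earlier results of these data known. Every gene of the list is named, and the 2 genes most correlated with the highest one.

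Implied reads came from the step of 1 read in FPKM times length, in 1156 single-model genes of at least 3000 bases. Of values up to 5 reads, 99.1% to 100% lay within 0.2 of a whole number. The implied depths follow Cuffnorm's scaling, which is not given, so they may differ from the depth sequenced.

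limma 3.58.1 (R 4.3.3) tested log2(FPKM + 1) with a variance trend, 1 term per group and all 9 libraries, in genes averaging at least 1 FPKM, two-sided, with Benjamini-Hochberg adjustment over all of them and a threshold of 0.05. Fold changes on this scale understate those of low genes. The fit was checked on simulated data with independent libraries and few genes changed, in the pre-miR-29b-1 group alone. That check does not cover correlated libraries or changes in most genes. Alternatives changed pseudocount, filter, scaling, moderation, weights, libraries and the replicate block.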

Additional observations from a re-analysis of the deposited data

How the results depend on the processing

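Col3a1 and Col5a2 were called lower against anti-miR-29a in every alternative run, for each pre-miR and both, and leaving out 1 library gave 2 genes lower and 0 higher each time. Without a filter, 2 genes were called higher in pre-miR-29b-1 cells, 2 in pre-miR-29a cells and 3 with both pre-miRs (Col1a2 besides Col11a1 and Col5a3), and with no filter and a pseudocount of 0.1 the number was 3 in each. The filter decides whether these genes are tested, and with it lifted the smaller pseudocount added Col1a2 for each pre-miR. Between the pre-miRs, 2 genes were called higher with array weights, and leaving out 1 library gave 0 to 1. The sign of the uncalled Col1a1 values turned with quantile normalization, to -0.105 for pre-miR-29b-1 cells, -0.0571 for pre-miR-29a cells, -0.0808 for both and -0.0475 between the pre-miRs, and with array weights to -0.0400 for pre-miR-29a cells; the cause was not tested. Leaving out 1 library gave Col1a1 -0.0292 to 0.0979 with pre-miR-29a and -0.0339 to 0.0932 between the pre-miRs, and Col2a1 -0.0030 to 0.0598 with pre-miR-29a. Between the pre-miRs it gave -0.0147 to 0.0011 for Col1a2, -0.050 to 0.013 for Col2a1, -0.021 to 0.045 for Col5a3 and -0.105 to 0.083 for Col11a1. With the replicate block, Col3a1 stood at -2.32 in pre-miR-29b-1 cells and -2.51 in pre-miR-29a cells, and no call changed among the 3 genes fitted with it (Col1a1, Col3a1 and Col5a2). The main fit did not take the replicate numbers as pairs. The deviations of same-numbered libraries correlated at over 0.1 in 6 of 9 pairs (r -0.018 to 0.295). The block moved the genes called between the pre-miRs to 184, against 1 without it. Whether same-numbered libraries belong together was not tested. Depth limits Col1a2 and Col2a1, at 0 to 9 reads per library.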

Other observations

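The 8 other gene models with at least 10 exons of 54 bases, a mark of triple-helix exons, have no names in the files. Whether any of them is a fibrillar collagen cannot be told from the files. Of these, 3 had a mean of at least 1 FPKM, and all 3 were higher with both pre-miRs than with anti-miR-29a. ENSMUSG00000040690 stood at 57.5 ± 11.0 FPKM in the 6 pre-miR libraries and 32.9 ± 1.44 FPKM in the 3 anti-miR-29a libraries (SD), with a log2 fold change of 0.77 (adjusted p 7.01e-05, limma). ENSMUSG00000027570 stood at 4.52 ± 0.93 FPKM and 2.30 ± 0.099 FPKM in the same groups, with a log2 fold change of 0.72 (adjusted p 5.30e-04, limma). For ENSMUSG00000045672 these values were 5.79 ± 1.22 FPKM and 3.43 ± 0.076 FPKM, with a log2 fold change of 0.59 (adjusted p 0.00185, limma). The other 5 lay under 1 FPKM, and 2 of them passed without a filter. ENSMUSG00000024330 stood lower, at 0.621 ± 0.17 FPKM in the pre-miR libraries and 1.03 ± 0.030 FPKM in the anti-miR-29a libraries (log2 fold change without a filter -0.33, adjusted p 0.00969, limma). Another stood higher, at 0.124 ± 0.056 FPKM in the pre-miR libraries and 0.0194 ± 0.017 FPKM in the anti-miR-29a libraries (log2 fold change without a filter 0.14, adjusted p 0.0126, limma). With the filter, 29.3% of tested genes were called higher and 32.3% lower in this comparison. Without it, 13.2% of the 3872 genes under 1 FPKM were called higher and 2.38% lower. This set was taken by exon structure after the values of the fibrillar collagens were known.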
